A study of Mus musculus with 4 samples.

Results

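Imprinted growth-control genes are genes read from only 1 of the parental copies whose products set how much cells divide and grow. The set held 10 genes, H19, Igf2, Meg3, Dlk1, Cdkn1c, Ndn, Peg3, Gnas, Grb10 and Plagl1, and a probe belonged to it when its RefSeq accession mapped to one of these symbols. This gave 18 probes for 9 genes, out of 55681 probes, and 6 of the genes were bright enough to be tested among 22362 genes and unnamed transcripts. H19 had no probe by accession.

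RNA was compared between IRF8-GFP positive and IRF8-GFP negative lymphoid-primed multipotent progenitors (LMPP), early bone marrow cells of the mouse that can still form lymphoid and myeloid cells. All mice carried a green fluorescent protein (GFP) knocked in as a reporter of the transcription factor IRF8, so both groups share that allele. Both groups were magnetically enriched and then sorted as cells without lineage markers, IL-7R or CD150 and with Sca-1, CD117, CD34 and CD135, and the reporter alone divided them. Each group had 2 one-colour arrays, exp 1 and exp 2. The age, sex and strain of the mice are not given in the sources used here, nor is whether a sample pooled animals or whether separate animals stand behind exp 1 and exp 2. The p-values thus cover array-to-array spread alone, and that spread may be technical.

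Genomic imprinting is set in the germ line by DNA methylation at control regions, which cause neighbouring genes to be read from the maternal or the paternal copy alone. Many imprinted genes form clusters and act on growth, several maternally expressed ones as brakes and several paternally expressed ones as growth promoters. In the blood system, long-term stem cells of the mouse are known for high expression of part of this network, in which Cdkn1c, the H19 and Igf2 pair and the Dlk1 and Meg3 locus have been tied to stem cell quiescence. The arrays measured the RNA of both parental copies together.

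The groups differed over much of the transcriptome. Irf8 was 11.7-fold higher in the positive group, and of all genes tested 59.9% passed a limma adjusted p of 0.05. Higher calls in the positive group made up 38.5% of the genes and lower calls 21.4%. The median log2 difference of all genes, positive minus negative, was 0.16, and it moved between -0.14 and 0.20 with other scalings. Across genes, which are not independent replicates, Pearson correlations of arrays were 0.997 for the positive pair, 0.998 for the negative pair and 0.980 to 0.981 between groups. Spots well above background numbered 29631 and 30266 of 59305 on the positive arrays, against 33506 and 33681 on the negative arrays. RNA of the sorting gate differed as well, Il7r being 5.26-fold higher in the positive group, Ly6a (Sca-1) 1.94-fold lower and Kit (CD117) 1.31-fold lower. Cd34 (1.20-fold) and Flt3 (CD135, 1.19-fold) passed as higher, calls that changed under 10 settings each. Slamf1 (CD150) was not above background on any array. In bulk samples such as these, fewer cells of a type and less RNA per cell cannot be told apart.

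Most of the tested growth-control genes were lower in IRF8-GFP positive LMPP. Of the 6 tested, 4 passed as lower, Meg3, Cdkn1c, Dlk1 and Ndn, beside 21.4% of all genes. Plagl1 passed in the other direction by a small margin (38.5% of all genes), and Gnas did not pass. Without negative replicate 1 the count of lower members was 3, and with normexp background correction it was also 3, because Ndn did not pass. In 3 of the 6, Meg3, Cdkn1c and Dlk1, the fitted decrease was at least 2-fold, a size that 5.61% of all genes reached in that direction. With normexp correction Cdkn1c (-1.33) alone kept that size, Dlk1 being at -0.65 and Meg3 at -0.55. The groups did not overlap in the 4 lower genes, a separation toward lower values that 29.8% of all genes showed. It rests on the same array values as the calls and is no further support. The median difference of the 6 was -0.83, against 0.16 for all genes. It was -0.32 with normexp correction, against 0.20 for all genes, and -0.47 over the 5 members above background on all 4 arrays, against 0.21. Meg3 entered the test through the negative arrays alone, so a gene of this kind had to differ, and the counts and median describe only the genes that passed the filter.

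**Figure D1:**
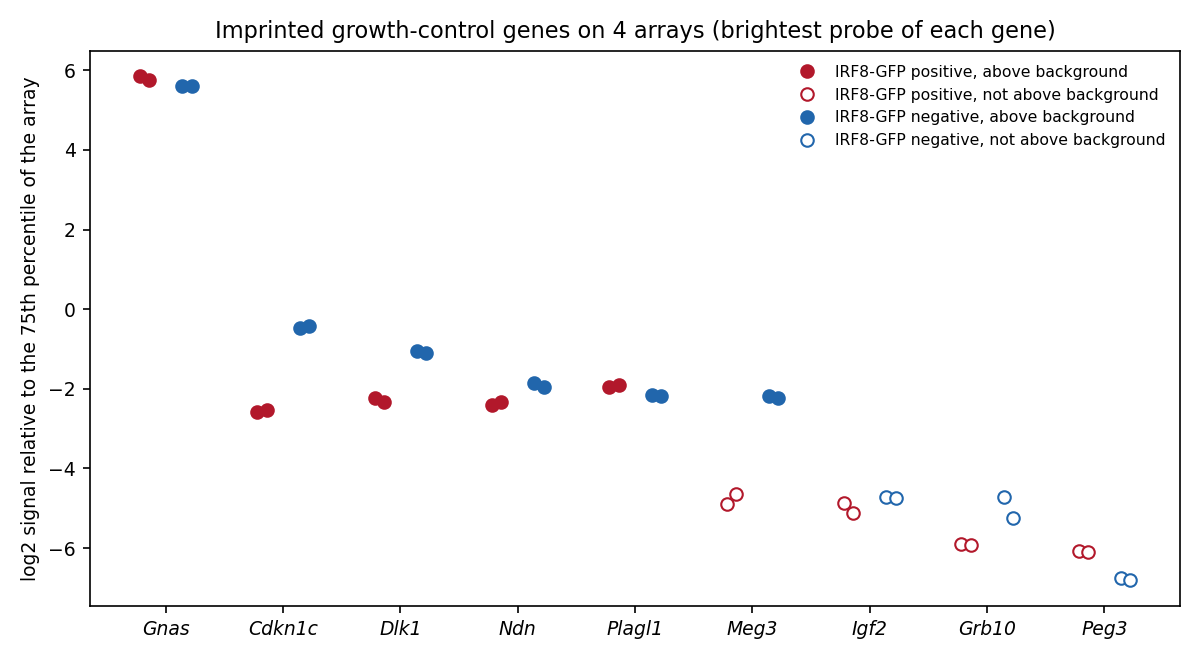
Log2 processed signal relative to the 75th percentile of the array for the brightest probe of the 9 genes with a matched probe, for 2 IRF8-GFP positive arrays (red, left) and 2 IRF8-GFP negative arrays (blue, right); open circles are signals not well above background. Cdkn1c, Dlk1, Ndn and Meg3 are lower on both positive arrays, while Igf2, Grb10 and Peg3 have no filled circle. Heights of different genes come from different probes and are not to be set against each other.

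Cdkn1c encodes p57, a cyclin-dependent kinase inhibitor read from the maternal copy that holds cells out of the cell cycle. Its processed signal, an array intensity after background subtraction, was 53.5 and 71.2 on the positive arrays, against 317 and 405 on the negative arrays. All 4 arrays were above background, and the groups lay far apart with little spread within each. Scaled to the 75th percentile, the log2 signal was -2.56 ± 0.02 in positive LMPP and -0.44 ± 0.03 in negative LMPP (SD, n = 2 each). The log2 difference was -2.11 (SE 0.06), a 4.32-fold decrease, with a limma adjusted p of 0.000859. Only 0.814% of all genes had a difference this low or lower.

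Meg3 is a maternally expressed long noncoding RNA of the Dlk1 and Dio3 region, and Dlk1 is the paternally expressed neighbour that encodes a transmembrane protein with epidermal growth factor repeats, related to Notch ligands. Meg3 had a signal of 10.7 and 16.7 on the positive arrays, against 96.6 and 116 on the negative arrays. No positive array was well above background, so only a bound can be given, at least 3.47-fold lower. The log2 signal was -4.77 ± 0.19 in positive LMPP and -2.20 ± 0.03 in negative LMPP (SD, n = 2 each), the fitted log2 difference was -2.56 (SE 0.11) and the limma adjusted p was 0.00137. Its other 2 probes stayed dim on all 4 arrays.

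Dlk1 was dim but measured on all arrays with its brighter probe. The signal was 68.3 and 82.8 on the positive arrays, against 213 and 251 on the negative arrays. The log2 signal was -2.27 ± 0.07 in positive LMPP and -1.08 ± 0.05 in negative LMPP (SD, n = 2 each). The difference of -1.20 (SE 0.07), or 2.29-fold lower, passed with a limma adjusted p of 0.00173. The second Dlk1 probe read 8.24 and 10.4 on the positive arrays, against 29.3 and 36.6 on the negative arrays, and only the negative arrays were above background. Having been kept through the negative arrays alone, it had to differ and is given only as a bound of at least 1.07-fold lower. Across all 17 alternative settings Dlk1 and Cdkn1c were lower and passed. Meg3 did so in the 16 settings in which it was tested. Since Meg3 was above background on the negative arrays alone, the filter favoured that outcome, and its count of settings is not support.

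Ndn encodes necdin, a paternally expressed protein of the MAGE family that restrains cell growth. Its signal was 59.5 and 81.9 on the positive arrays, against 121 and 139 on the negative arrays, and all arrays were above background. The log2 signal was -2.38 ± 0.06 in positive LMPP and -1.91 ± 0.07 in negative LMPP (SD, n = 2 each), without overlap. The difference was -0.47 (SE 0.07), a 1.38-fold decrease, with a limma adjusted p of 0.00819. It did not pass without negative replicate 1 (-0.41, adjusted p = 0.055) or with normexp background correction (-0.09, adjusted p = 0.384).

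Plagl1 encodes a zinc finger transcription factor, read from the paternal copy, that is known to regulate other imprinted genes. Its brightest probe had a signal of 81.4 and 111 on the positive arrays, against 97.6 and 120 on the negative arrays. These raw signals are lower in the positive group, whose arrays were dimmer as a whole. After scaling they were -1.93 ± 0.05 in positive LMPP and -2.17 ± 0.01 in negative LMPP (SD, n = 2 each). The difference of 0.24 (SE 0.06, limma adjusted p = 0.0283) lay only 0.08 above the median of all genes, and its sign turned with spike-in scaling (-0.07). Plagl1 did not pass in 7 of the 17 settings, among them without positive replicate 2 (adjusted p = 0.0901), negative replicate 1 (0.12) or negative replicate 2 (0.136), with spike-in scaling (0.374) and with an intensity trend (up to 0.0969). A second Plagl1 probe read 73.8 and 98.1 on the positive arrays, against 95.0 and 109 on the negative arrays, and did not pass (0.17, adjusted p = 0.104). The other 2 Plagl1 probes did not exceed background on any array.

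Gnas encodes the stimulatory G protein alpha subunit and, from other starts, imprinted transcripts of its locus. The brightest probe had a signal of 18402 and 22359 on the positive arrays, against 21333 and 26419 on the negative arrays. Its log2 signal was 5.80 ± 0.07 in positive LMPP and 5.61 ± 0.001 in negative LMPP (SD, n = 2 each), and the difference of 0.20 (SE 0.06) did not pass (limma adjusted p = 0.0566). That sign turned under 5 settings, with -0.28 under quantile normalization and in the authors' deposited matrix values, -0.21 under cyclic loess, and -0.11 both when its probes were averaged and under spike-in scaling. No direction can be given for Gnas. A second probe, on another Gnas transcript, read 29.4 and 60.4 on the positive arrays, against 66.3 and 85.5 on the negative arrays (-0.41, SE 0.24, adjusted p = 0.209). The remaining Gnas probe was too dim on every array.

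Of the remaining genes, Igf2, the growth factor read from the paternal copy, had a signal of 10.8 and 11.97 on the positive arrays, against 16.5 and 20.2 on the negative arrays. Grb10, an adaptor that restrains insulin and insulin-like growth factor receptors, had 5.34 and 6.87 on the positive arrays, against 16.7 and 14.4 on the negative arrays. Both probes of Peg3, a paternally expressed zinc finger gene, read from 4.04 to 6.03. None of these probes was well above background on any array, so Igf2, Grb10 and Peg3 were not tested, and no difference between the groups is measured for them. For H19, a maternally expressed noncoding RNA, 5 probes carry that name in the files without an accession. One of them was above background on all 4 arrays, at 34.7 and 35.2 on the positive arrays, against 36.5 and 32.3 on the negative arrays (0.45, SE 0.22, limma adjusted p = 0.145). On no array did the other 4 exceed background.

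**Figure D2:**
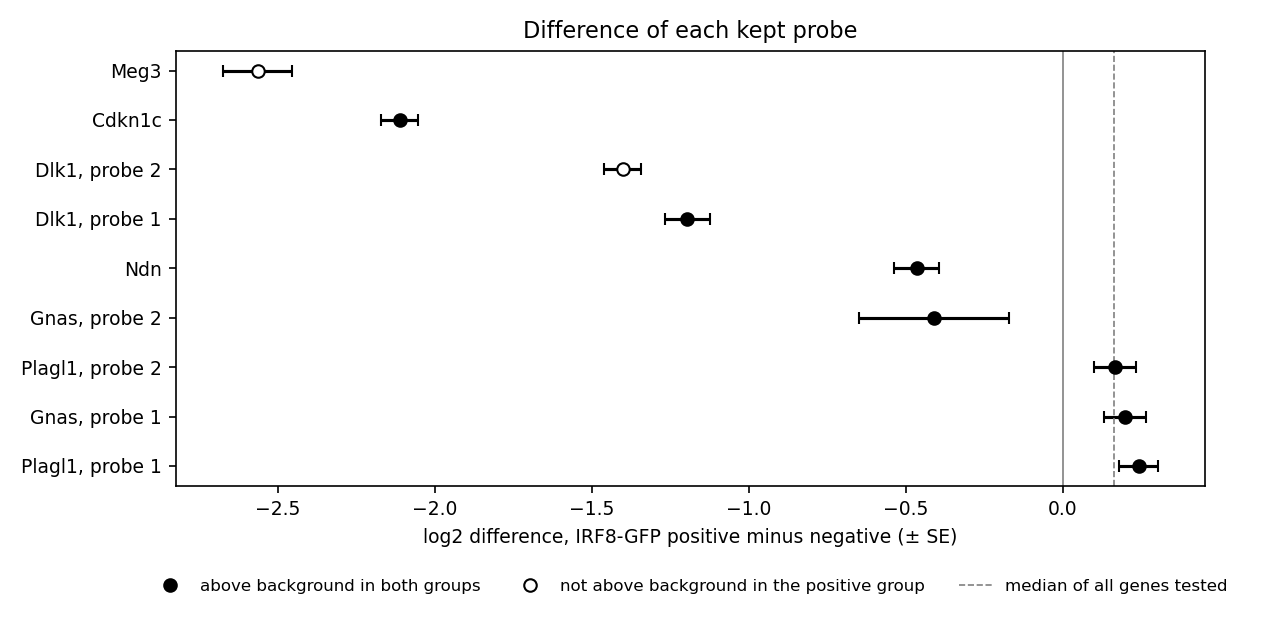
Log2 difference (positive minus negative, bars are SE) of the 9 kept probes of the 6 tested genes, with the solid line at 0 and the dashed line at the median of all genes, 0.16. Both Dlk1 probes lie below -1, and the open symbols, Meg3 and Dlk1 probe 2, mark probes not above background in the positive group.

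RefSeq promoters of Dlk1, Meg3, Ndn and Plagl1 are shown so that their CpG content can be read beside the RNA values. H19 and Cdkn1c had no entry, and the other 8 genes had 16 windows of 300 bases from 250 before to 50 after the annotated start. Each is written on the strand of the gene, in the RefSeq table's build (GRCm38.p6), with CG dinucleotides in capitals. Dlk1 lies at chr12:109452573-109452872, Meg3 at chr12:109540746-109541045 and chr12:109545148-109545447, Ndn at chr7:62348027-62348326 and Plagl1 at chr10:13090582-13090881, all on the plus strand.
Dlk1: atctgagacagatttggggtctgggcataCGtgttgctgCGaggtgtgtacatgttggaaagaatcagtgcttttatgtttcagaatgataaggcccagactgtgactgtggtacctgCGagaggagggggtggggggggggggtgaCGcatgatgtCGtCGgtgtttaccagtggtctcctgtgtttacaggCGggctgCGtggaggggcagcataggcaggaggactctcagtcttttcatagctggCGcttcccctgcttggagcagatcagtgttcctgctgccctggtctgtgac
Meg3, first start: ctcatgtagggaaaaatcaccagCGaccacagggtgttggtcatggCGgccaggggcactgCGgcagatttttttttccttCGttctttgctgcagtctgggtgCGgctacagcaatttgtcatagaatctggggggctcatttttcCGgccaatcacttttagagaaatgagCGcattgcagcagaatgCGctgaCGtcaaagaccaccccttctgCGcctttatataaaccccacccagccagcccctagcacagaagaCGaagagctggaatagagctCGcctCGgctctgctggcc
Meg3, second start: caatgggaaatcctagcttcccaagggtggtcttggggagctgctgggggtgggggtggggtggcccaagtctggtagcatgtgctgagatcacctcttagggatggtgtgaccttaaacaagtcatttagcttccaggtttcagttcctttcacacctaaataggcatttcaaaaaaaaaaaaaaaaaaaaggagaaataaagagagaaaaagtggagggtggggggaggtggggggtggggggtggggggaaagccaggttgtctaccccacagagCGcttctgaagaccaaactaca
Ndn: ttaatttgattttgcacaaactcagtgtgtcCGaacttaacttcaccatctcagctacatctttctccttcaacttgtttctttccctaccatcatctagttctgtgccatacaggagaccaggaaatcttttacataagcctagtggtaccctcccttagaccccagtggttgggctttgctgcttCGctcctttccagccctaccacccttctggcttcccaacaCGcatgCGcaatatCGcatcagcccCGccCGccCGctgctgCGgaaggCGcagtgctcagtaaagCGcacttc
Plagl1: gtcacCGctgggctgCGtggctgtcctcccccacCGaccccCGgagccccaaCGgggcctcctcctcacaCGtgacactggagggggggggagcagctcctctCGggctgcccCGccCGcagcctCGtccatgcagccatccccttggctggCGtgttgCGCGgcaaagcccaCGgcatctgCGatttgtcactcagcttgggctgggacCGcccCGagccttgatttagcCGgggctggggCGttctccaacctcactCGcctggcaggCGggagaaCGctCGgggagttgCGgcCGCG
The CpG count was 9 for Dlk1, 13 and 1 for the 2 Meg3 starts, 11 for Ndn and 26 for Plagl1. Over 32851 windows the lower quartile was 3, the median 7 and the upper quartile 20, so the windows of Dlk1, Ndn and the first Meg3 start were above the median, the second Meg3 start was below the lower quartile and Plagl1 was above the upper quartile. The motif TGCCGC, known as the binding core of ZFP57, a protein that maintains methylation at imprinted regions, was searched on both strands and occurs in 11.61% of all windows. It was found in 4 of the 16 windows, at -190 of the first Meg3 window, at -90 of Plagl1, and downstream of the start in 1 window each of Igf2 and Grb10. The composite GGAANNGAA, a site type of ETS and IRF factors, occurs in 8.24% of windows and was found in 2 of the 16, at -110 of the second Meg3 window and in 1 window of Grb10. The IRF motif GAAANNGAA, in 8.56% of all windows, was found in 1 window of Igf2, and GGGGCCCC, the core bound by PLAGL1, in 1.08% of all windows, in that of Peg3. None of these motifs was found in the windows of Dlk1 or Ndn. These matches describe letters in a window and say nothing of binding.

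The neighbours of the members had calls in both directions. Of 48 distinct tested neighbours of all members, 3 on each side, 22 were higher, 7 were lower and 19 did not pass, with a median of 0.30. The shares over all genes were 38.5% higher and 21.4% lower, with a median of 0.16. Counted among the 7 lower are Phlda2 and Mkrn3, kept through the negative arrays alone, and Kcnq1ot1, whose probes disagree. Fbxo48, among the 22 higher, was not above background on all 4 arrays. Some of the nearest tested genes lie far off in RefSeq order, such as Ppp2r5c at place 103 from Meg3 and Ube3a at place -248 from Ndn. Around Cdkn1c, the solute carrier gene Slc22a18 read 354 and 503 on the positive arrays, against 1400 and 1721 on the negative arrays (-1.45, SE 0.07, limma adjusted p = 0.00144). Phlda2, a maternally expressed growth brake of the placenta, read 4.58 and 5.78 on the positive arrays, against 19.6 and 34.6 on the negative arrays. Its positive arrays were not above background, and Phlda2 was kept through the negative arrays alone, a filter that favours lower values. The negative mean of -4.23 lay under the lowest level well above background on the positive arrays (-3.99 and -4.01), so not even a bound can be given. The fitted difference of -1.91 (adjusted p = 0.00314) is thus not a measured decrease. With normexp correction it was -0.04 (adjusted p = 0.724). Tssc4 (0.53, adjusted p = 0.00416) and Nap1l4 (0.40, adjusted p = 0.0073) passed in the other direction, calls that were lost under cyclic loess for Tssc4 and under 6 settings for Nap1l4. Cd81 (-0.20, adjusted p = 0.0523) did not pass.

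Kcnq1ot1, the noncoding RNA of the same cluster, gave divided results. The 2 probes matched by accession fell (-0.95 and -0.66, adjusted p = 0.00277 and 0.0106 in the probe-level limma fit). Among 5 probes that carry the name without a matched accession, 2 were higher (0.56 and 0.68, adjusted p = 0.0109 and 0.0331), 2 did not pass and 1 was too dim, so no direction can be given for Kcnq1ot1.

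Next to Dlk1 and Meg3, Begain read 93.0 and 99.8 on the positive arrays, against 217 and 287 on the negative arrays (-0.95, SE 0.12, limma adjusted p = 0.005). On its far side Wdr25 (0.19, adjusted p = 0.0507) did not pass, and beyond Meg3 neither did Ppp2r5c (0.15) or Dync1h1 (-0.20). The next tested genes out, Wars (0.42, adjusted p = 0.00722) and 1700001K19Rik (0.40, adjusted p = 0.0149), passed as higher, calls lost under 6 and 4 settings. Around Ndn, the paternally expressed Mkrn3 read 26.8 and 42.2 on the positive arrays, against 67.5 and 97.7 on the negative arrays (-0.85, SE 0.14, adjusted p = 0.0094). Mkrn3 was not above background on positive replicate 1 and was kept through the negative arrays alone, a filter that favours lower values. The Mkrn3 call was lost without negative replicate 2 and with normexp correction (adjusted p up to 0.52), while Magel2 (-0.26) and Peg12 (0.01) did not pass.

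**Figure D3:**
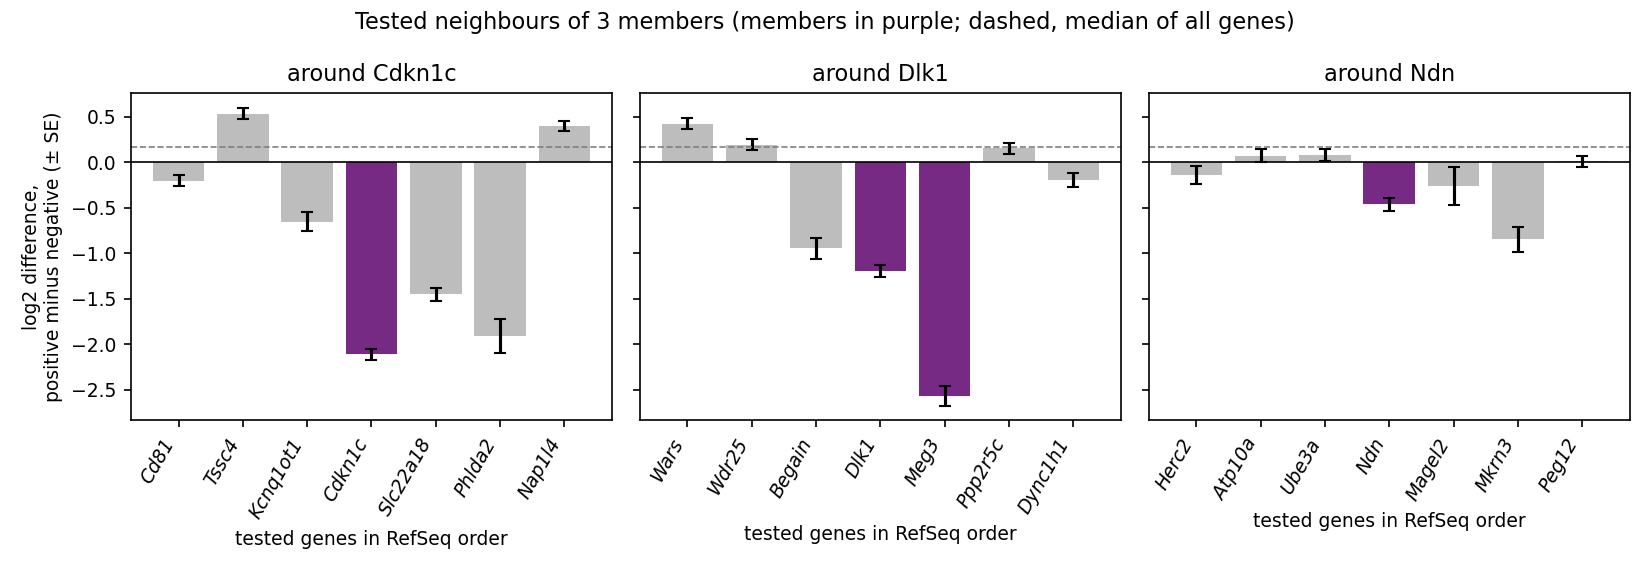
Log2 difference (positive minus negative, bars are SE) of the nearest tested genes in RefSeq order around Cdkn1c, Dlk1 and Ndn, with members in purple and the dashed line at the median of all genes, 0.16. Around Cdkn1c, Slc22a18 lies below -1 while Tssc4 and Nap1l4 lie above the dashed line, and Dlk1 stands between Begain and Meg3. Kcnq1ot1 is drawn from 1 of its probes, which disagree. Meg3 and Phlda2 were not above background on the positive arrays, so the lengths of their bars are fitted values and not measured decreases. Mkrn3 was kept through the negative arrays alone.

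Imprinted genes outside the set moved both ways. Of 65 listed, 60 were on the array and 39 were tested, with 10 higher, 15 lower and 14 not passing and a median of -0.16. Over all genes 38.5% were higher and 21.4% lower, with a median of 0.16. Quantile normalization and the deposited matrix values each gave 7 higher and 18 lower, cyclic loess 6 and 18, and spike-in scaling 2 and 22. For all genes, quantile normalization gave 6059 higher and 5466 lower, cyclic loess 5542 and 5744, and spike-in scaling 3299 and 8099. Besides Slc22a18, the sarcoglycan gene Sgce read 162 and 219 on the positive arrays, against 577 and 710 on the negative arrays (-1.34, SE 0.06, limma adjusted p = 0.00137). Htr2a, a serotonin receptor gene, was at least 1.25-fold lower (fitted difference -1.63, adjusted p = 0.0115), a call lost without either negative array and with normexp correction, where its value was 0.06. Htr2a, Phlda2 and Mkrn3, all among the 15 lower, were kept through the negative arrays alone. That filter favours lower values, so none of these calls is support. Kcnq1ot1, whose probes disagree, is also counted among the 15. Another 21 listed genes, among them Mest, Peg10, Rtl1, Dio3 and Snrpn, were not above background on any array.

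**Figure D4:**
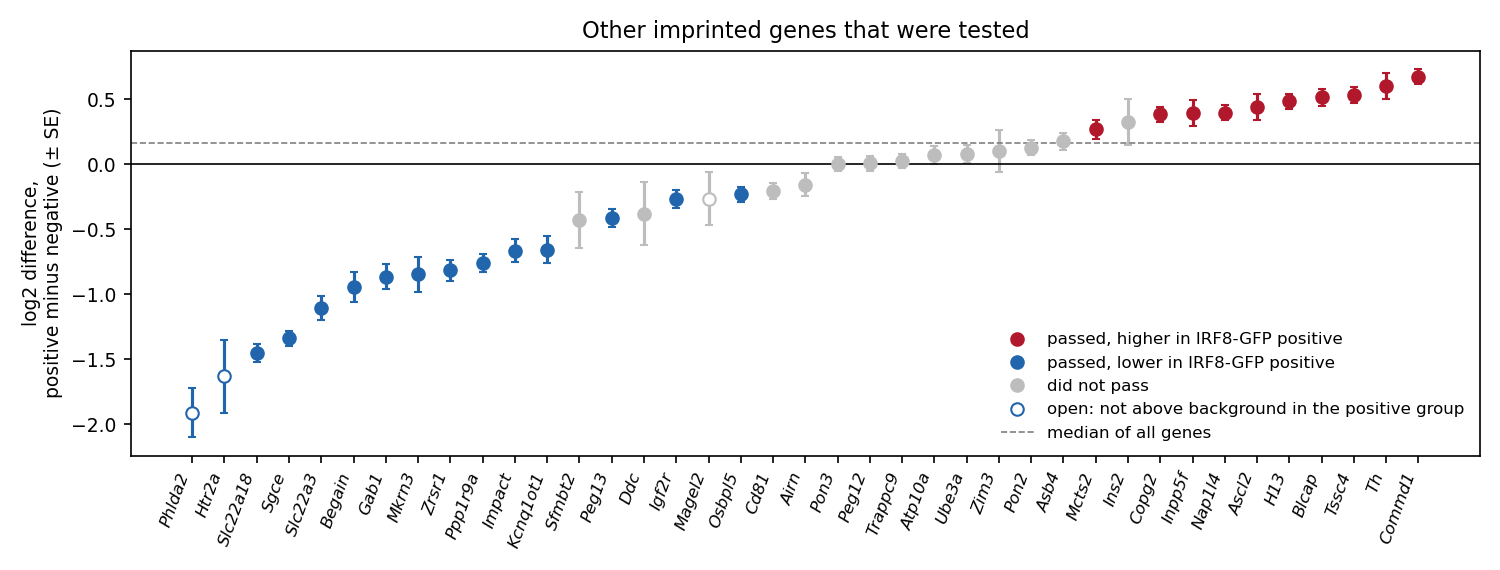
Log2 difference (positive minus negative, bars are SE) of the 39 other imprinted genes that were tested, in order of the difference, with the dashed line at the median of all genes. Blue marks the 15 lower, red the 10 higher and grey the 14 that did not pass, and open symbols had no positive array above background.

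Most genes of the G1 list were higher. It holds the cyclins and kinases of early cell cycle control, the other kinase inhibitors, Rb and E2F family genes, and Pcna. Of its 19 tested genes, 15 were higher and 0 lower in limma, with 4 not passing and a median of 0.61. The shares over all genes were 38.5% higher and 21.4% lower. The list's split was 12 higher and 2 lower with spike-in scaling, and 11 and 1 under both quantile normalization and cyclic loess. For all genes these settings gave 3299 and 8099, 6059 and 5466, and 5542 and 5744. The inhibitor gene Cdkn1a, which encodes p21, read 719 and 927 on the positive arrays, against 288 and 378 on the negative arrays (1.73, SE 0.06, adjusted p = 0.00115). Ccne1, the cyclin E1 gene, was higher by 1.60 (SE 0.07, adjusted p = 0.00144). Ccnd1 (cyclin D1) and E2f2 were each higher by 0.94. Cdkn1b, the p27 gene of the same inhibitor family, was at -0.12 and did not pass (adjusted p = 0.322), although it passed as lower under quantile normalization, in the matrix values and with spike-in scaling and cyclic loess.

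Insulin-like growth factor signalling, which Igf2 feeds and Grb10 restrains, had calls in both directions at shares close to those of all genes. Of 28 tested genes 10 were higher, 7 were lower and 11 did not pass, with a median of 0.10. Over all genes 38.5% were higher and 21.4% lower, with a median of 0.16. The list's split was 6 and 8 with quantile normalization, where 6059 of all genes were higher and 5466 lower. With spike-in scaling it was 1 and 12, where 3299 of all genes were higher and 8099 lower. Igf1r, the receptor gene, read 1789 and 2443 on the positive arrays, against 3606 and 4640 on the negative arrays (-0.54, SE 0.06, limma adjusted p = 0.00412), a gene chosen after its values were seen. The adaptor gene Irs2 was lower (-0.70, adjusted p = 0.00222). The binding protein gene Igfbp6 was lower too (-0.97, adjusted p = 0.00227) but lost its call with normexp correction. Igfbp6 and Foxo4, both among the 7 lower, were kept through the negative arrays alone. That filter favours lower values, so neither call is support, and the Foxo4 call was also lost with normexp correction. Igfbp4 (0.84, adjusted p = 0.0139) and Ins1 (0.91, adjusted p = 0.00405) were higher, the Igfbp4 call being lost without negative replicate 2, with spike-in scaling and at an adjusted p of 0.01.

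Genes of Gs and cyclic AMP signalling, the pathway of Gnas, also had calls in both directions. Of 22 tested, 9 were higher and 3 lower, with a median of 0.07, beside 38.5% higher and 21.4% lower over all genes. With quantile normalization the split was 6 and 6, against 6059 and 5466 of all genes. With spike-in scaling it was 5 and 9, against 3299 and 8099 of all genes. The adenylyl cyclase gene Adcy9 was lower (-0.77, SE 0.08, limma adjusted p = 0.00381). Prkar2a, a regulatory subunit gene of protein kinase A, was higher (0.86, SE 0.08, adjusted p = 0.00304), as were Pde3b (0.69) and Gnb1 (0.67).

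The imprint maintenance list also holds genes with other roles in methylation and chromatin, such as Tet2, Tet3, Dnmt3l and Kdm1b. Of its 19 tested genes, 12 were higher and 0 lower in limma, with a median of 0.38, beside 38.5% higher and 21.4% lower over all genes. The list's split was 7 and 2 with quantile normalization, 6 and 2 with cyclic loess and 6 and 3 with spike-in scaling. For all genes these settings gave 6059 and 5466, 5542 and 5744, and 3299 and 8099. Uhrf1 (0.84), which brings the maintenance methyltransferase to replicating DNA, that enzyme's own gene Dnmt1 (0.81), the Polycomb methyltransferase gene Ezh2 (0.81) and Smchd1 (0.67) were the genes with the largest differences. Zfp57 passed (0.55, adjusted p = 0.0155) but not without either negative array, and Dnmt3a (-0.17, adjusted p = 0.105) did not pass.

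Markers of other cell states also differed between the groups, in both directions. The shares to set beside their counts are 38.5% higher and 21.4% lower over all genes. Of 19 tested stem cell markers 15 were lower and 2 higher, and their summed scaled level was 416 and 427 on the positive arrays, against 445 and 445 on the negative arrays, a sum dominated by gate genes. Of 15 erythroid and megakaryocyte markers 12 were lower and 1 higher (summed level 20.4 and 21.1 on the positive arrays, against 33.8 and 35.8 on the negative arrays). All 10 proliferation markers were higher, with a summed level of 573 and 553 on the positive arrays, against 310 and 315 on the negative arrays. Of 10 tested markers of stroma and endothelium 4 were lower and 2 higher (25.8 and 21.4 on the positive arrays, against 20.9 and 18.97 on the negative arrays), and Pdgfra, Cdh5, Lum and Dcn did not exceed background anywhere. Of 10 tested monocyte and granulocyte markers 5 were higher and 2 lower (686 and 614 on the positive arrays, against 235 and 235 on the negative arrays). Of 8 dendritic cell markers 6 were higher and 0 lower in limma (234 and 212 on the positive arrays, against 236 and 195 on the negative arrays), and quantile normalization gave 3 and 1. Of 6 B lineage markers 4 were higher and 0 lower (26.0 and 26.1 on the positive arrays, against 14.9 and 14.2 on the negative arrays). Of 6 T, NK and innate lymphoid markers 2 were higher and 2 lower (23.5 and 22.9 on the positive arrays, against 25.2 and 24.8 on the negative arrays). Among the counted calls, Mecom, Hoxb5, Tek, Alas2 and Vcam1 (lower) and Clec9a (higher) were not above background on all 4 arrays. Such genes were kept through 1 group alone, a filter that favours their direction, so these calls are not support. Hoxb5, Tek and Alas2 also lost their calls with normexp correction. The part of all these cell state markers in the decrease of Meg3, Cdkn1c, Dlk1 and Ndn was not tested.

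The genes whose 4 array values lay closest to a member, by Euclidean distance between centred log2 signals, were Trim47 (0.02) and Samd9l (0.03) for Cdkn1c, Mirt1 (0.04) and Irf7 (0.07) for Dlk1, and Ptgs1 (0.06) and Bpifb5 (0.10) for Meg3. For Ndn they were Xlr4a and Lmbr1l, each at 0.02. With 4 arrays the measure mostly reflects the size of the group difference.

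**Figure D5:**
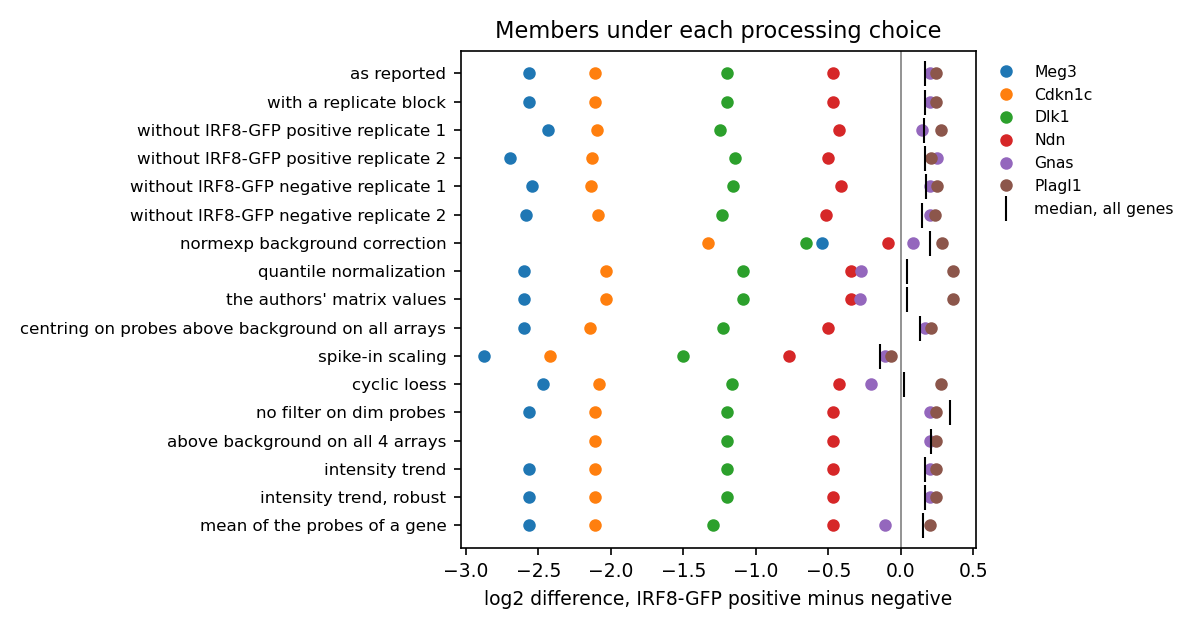
Log2 difference (positive minus negative) of the 6 tested genes under the reported setting and the alternatives, with black ticks at the median of all genes. Cdkn1c, Dlk1 and Meg3 stay below -0.5 in each setting shown, Meg3 being untested when all 4 arrays must be above background, while Gnas lies on either side of 0.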

How the data were processed

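Per the labels' protocols, cells were sorted, total RNA was extracted and labelled with Cy3 by a low-input kit. Per the file headers, Agilent Feature Extraction 10.7.3.1 read the scans. The authors deposited scanner files whose processed intensity is background-subtracted but not normalized between arrays, and a matrix of intensity values that were quantile normalized, judging from the values. All 4 arrays lie on 1 slide scanned on 1 day. No spot was saturated.

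Control spots and outlier spots were left out, which dropped 12 probes. Spots of a probe were averaged, taken to log2 and scaled by subtracting the array's 75th percentile, a signal of 318 and 414 on the positive arrays and 438 and 543 on the negative arrays. A probe was kept when well above background on both arrays of a group, which left 30478 probes, and a gene was its brightest kept probe. Accessions were matched to RefSeq of GRCm38.p6, used only for names and gene order, since the arrays were designed on another build, and for the promoter windows. This named 26756 probes with 1 symbol, and 28913 had none.

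The fit was limma 3.58.1 in R 4.3.3 (lmFit and eBayes, no block), with two-sided p-values for positive minus negative. They were adjusted by Benjamini and Hochberg's method over the 22362 genes, at a threshold of 0.05. Residual degrees of freedom were 2 and prior ones 2.05, and the smallest p of an exact permutation test in this design is 0.333. Where no array of the dimmer group was above background, the change is a bound (at least), for which each dim array takes its own value or its lowest signal well above background, whichever is larger. Summed levels are sums of scaled linear signals. The code was tested on simulated data. The number of arrays limits precision.

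Scaling alternatives were quantile normalization, the deposited matrix values, centring on the probes that all 4 arrays detected, 7 spike-in control probes, and cyclic loess, which removes a trend with brightness. Normexp correction (offset 50) used median spot and background signals. Other alternatives averaged the probes of each gene, dropped or tightened the filter for dim signals, let the prior spread follow brightness (plain or robust), added a replicate block, left out each array, or required an adjusted p of 0.01.

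Members, gene lists and the rule for named genes were chosen with earlier results of these data known. The rule names every member, up to 4 passing genes of each pathway list with the largest absolute difference, the 3 nearest tested neighbours on each side of a member, the 2 most alike genes of each tested member, Irf8 and the genes of the sorting gate. Not every gene it takes is printed, and examples beyond it were chosen after their values were seen.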

Additional observations from a re-analysis of the deposited data

How the results depend on the processing

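Over 17 alternatives, the count of lower members was 4 as reported, 3 with normexp background correction and when all 4 arrays had to be above background, 5 with quantile normalization, the deposited matrix values, cyclic loess and no filter, and 3 to 4 when an array was left out. The count of higher members was 1 as reported, 0 with spike-in scaling and at an adjusted p of 0.01, 2 with no filter on dim probes (Peg3 and Plagl1) and when all 4 arrays had to be above background (Gnas and Plagl1), and 0 to 1 when an array was left out. Plagl1 reversed with spike-in scaling (-0.066). Gnas reversed under spike-in scaling (-0.11), cyclic loess (-0.21), quantile normalization (-0.28) and averaging of its probes (-0.11), and for the matrix values (-0.28). It passed as lower with quantile normalization (limma adjusted p = 0.0246), the matrix values (0.0255) and cyclic loess (0.0445), where it is among the 5 lower members. In the other direction, Gnas passed as higher with an intensity trend (adjusted p = 0.0158), a robust trend (0.0106) and the stricter filter (0.042). The cause was not tested. Without the filter Grb10 (-0.93, adjusted p = 0.0393) and Peg3 (0.69, adjusted p = 0.00519) passed at signals not above background. The differences ran from -2.87 to -0.55 for Meg3, -1.50 to -0.65 for Dlk1 and -2.42 to -1.33 for Cdkn1c, the end nearest 0 being that of normexp correction, with a highest adjusted p of 0.0262, 0.028 and 0.021. Calls over all genes were 13390, and 7612 without negative replicate 1, 7723 without negative replicate 2 and 7861 at an adjusted p of 0.01. The share of higher calls was 64.3%, and 52.6% with quantile normalization, 49.1% with cyclic loess and 28.9% with spike-in scaling. With the replicate number as a block, 13946 genes passed, with 4 members lower and 1 higher. Across genes, the deviations of the positive and negative exp 1 arrays from their group means had a correlation of only 0.0971. The 2 pairs are too few to show whether the shared numbers pair the samples, and the fit as reported has no block. Background limits Meg3 and Phlda2 on the positive arrays, Mkrn3 and Igfbp6 on positive replicate 1, and Igf2, Grb10 and Peg3 on all arrays.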
